A study of Mus musculus with 20 samples.

Results

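The mGluR6 cascade is the signalling pathway with which ON bipolar cells of the retina read glutamate from photoreceptors. It was followed here through 9 genes, Grm6, Trpm1, Gpr179, Nyx, Gnao1, Rgs7, Rgs11, Pcp2 and Prkca, the last being the standard marker of rod bipolar cells. The members are the probe sets whose only gene symbol in the platform annotation is one of these 9. The rule found 10 probe sets, 1 for each gene and 2 for Nyx, among 35557 on the array, of which 21789 have exactly 1 symbol. All 10 passed the filter on dim probe sets, and 15057 genes were tested in all.

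The RNA came from the retinas of C57BL/6 mice aged 7 to 8 weeks. Laser capture separated 4 layers, named photoreceptor (outer nuclear layer with outer and inner segments), inner nuclear, inner plexiform and ganglion cell layer, and whole retina was measured beside them. One set of mice was adapted to light for 6 h in a room at 450 lux, and the other to darkness for 3 h in a chamber at no more than 0.4 lux. There are 20 arrays, 2 for each of the 10 groups formed by 5 tissues and 2 adaptations. Nothing in the labels ties an array to an animal, so the p-values describe the spread between these arrays, which may in part be technical. In light-adapted photoreceptor layer, inner nuclear layer and whole retina, only replicate 1 carried signal from Y chromosome genes. Those replicates therefore do not share all their animals. In such dissected tissue, fewer cells of a type and less RNA per cell cannot be told apart.

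In darkness photoreceptors release glutamate, which binds the metabotropic receptor mGluR6 on the dendritic tips of ON bipolar cells. The receptor activates the G protein Go, and the cation channel TRPM1 closes; light stops the release, the channel opens and the cell depolarises. Regulators of G-protein signalling speed the switch-off of Go, and loss of the receptor, the channel or their partners GPR179 and nyctalopin abolishes the ON response and causes stationary night blindness in people. The cell bodies of ON bipolar cells lie in the inner nuclear layer, their dendrites at its outer border and their axon endings in the inner plexiform layer.

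The promoter windows of the 4 members that passed the test in the inner nuclear layer are shown because they fall into 2 kinds of sequence. They come from RefSeq (build GRCm38.p6), run from 250 bases before to 50 bases after an annotated transcript start, and are written 5′ to 3′ along the gene, with CG dinucleotides in capitals. Trpm1 lies at chr7:64153585-64153884 on the plus strand, Gpr179 at chr11:97352307-97352606, Pcp2 at chr8:3625498-3625797 and Prkca at chr11:108343839-108344138, the last 3 on the minus strand.
Trpm1: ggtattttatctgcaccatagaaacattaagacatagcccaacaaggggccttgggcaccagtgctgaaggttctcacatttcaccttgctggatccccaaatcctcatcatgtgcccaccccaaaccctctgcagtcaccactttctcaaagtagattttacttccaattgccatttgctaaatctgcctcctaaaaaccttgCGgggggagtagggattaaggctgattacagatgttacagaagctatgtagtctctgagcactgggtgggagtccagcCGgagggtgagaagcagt
Gpr179: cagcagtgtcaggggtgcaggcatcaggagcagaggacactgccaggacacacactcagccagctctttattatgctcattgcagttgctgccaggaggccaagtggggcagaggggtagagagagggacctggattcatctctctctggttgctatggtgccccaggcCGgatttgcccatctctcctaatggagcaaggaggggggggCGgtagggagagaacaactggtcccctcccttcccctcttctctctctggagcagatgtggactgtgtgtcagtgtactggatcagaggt
Pcp2: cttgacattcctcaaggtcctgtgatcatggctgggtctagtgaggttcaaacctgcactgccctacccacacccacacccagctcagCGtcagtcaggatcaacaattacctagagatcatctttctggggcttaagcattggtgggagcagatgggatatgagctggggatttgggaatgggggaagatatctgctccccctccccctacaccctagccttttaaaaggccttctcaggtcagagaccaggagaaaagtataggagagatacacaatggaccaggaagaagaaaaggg
Prkca: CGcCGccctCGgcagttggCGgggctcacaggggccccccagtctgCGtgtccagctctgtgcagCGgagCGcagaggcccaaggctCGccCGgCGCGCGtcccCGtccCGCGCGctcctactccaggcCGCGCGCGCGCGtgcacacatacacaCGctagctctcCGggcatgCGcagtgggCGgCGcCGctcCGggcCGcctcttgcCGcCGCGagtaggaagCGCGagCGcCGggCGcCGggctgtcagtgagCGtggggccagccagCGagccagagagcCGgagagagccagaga

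The Trpm1 and Gpr179 windows each hold 2 CG dinucleotides and the Pcp2 window 1, while the Prkca window holds 42. The median over all 32851 windows of the table was 7. Windows were found for 8 of the 9 members, 12 in all, since Trpm1 has 2 annotated starts and Pcp2 has 4 with overlapping windows. Grm6, with 4 CG dinucleotides, Nyx, with 3, and the second Trpm1 window, with 6, resembled the first kind, and Gnao1, with 42, and Rgs7, with 34, the second. GC content was 46% to 57.7% in the windows of Grm6, Trpm1, Gpr179, Nyx and Pcp2, and 73.3% to 76.3% in those of Gnao1, Rgs7 and Prkca. The letters TAATCC (or GGATTA on the other strand), the core of a site for the bipolar and photoreceptor factors OTX2 and CRX, occurred in 1 of the 12 member windows, that of Trpm1, 34 bases before the start. They occur in 7.06% of all windows, so 1 window of 12 is close to that share. TAATTA, a homeodomain core, was found in 1 member window against 5.29% of all, and CACGTG, an E-box, in 2 against 7.15%.

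Median intensities of the arrays were 37.5 to 40.8, and the 2 replicates of a group correlated across genes at 0.851 to 0.956. The inner plexiform arrays from light-adapted mice and the second light-adapted whole retina array stood furthest apart, with median correlations to the other arrays of 0.738, 0.768 and 0.721. The dark-adapted whole retina arrays came close to these, at 0.783 and 0.770, and the remaining arrays gave 0.817 or more. Signal from Y chromosome genes, here the median over 30 probe sets, was 192.25 to 306.2 on 5 light-adapted arrays and 8.6 to 25.05 on the rest. Those 5 are replicate 1 of the photoreceptor layer, inner nuclear layer and whole retina and both arrays of the ganglion cell layer, so that fits without them hold no light-adapted ganglion cell array. The rod and ganglion cell marker lists followed the labels. The 10 rod genes averaged a log2 level of 9.49 ± 0.07 (SD over 4 arrays) in the photoreceptor layer and of 6.46 to 6.88 elsewhere among the layers. For 10 ganglion cell genes the average was 7.53 ± 0.40 in their own layer and 5.11 to 5.73 in the other layers. The bipolar, horizontal cell and Müller glia lists had their highest layer mean in the inner nuclear layer. For Müller glia the inner plexiform mean was close to it (6.69 ± 0.49 against 6.87 ± 0.33). Amacrine genes did not peak there: their inner plexiform mean was 6.34 ± 0.35, their ganglion cell layer mean 6.30 ± 0.19 and their inner nuclear mean 6.04 ± 0.08.

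**Figure D1:**
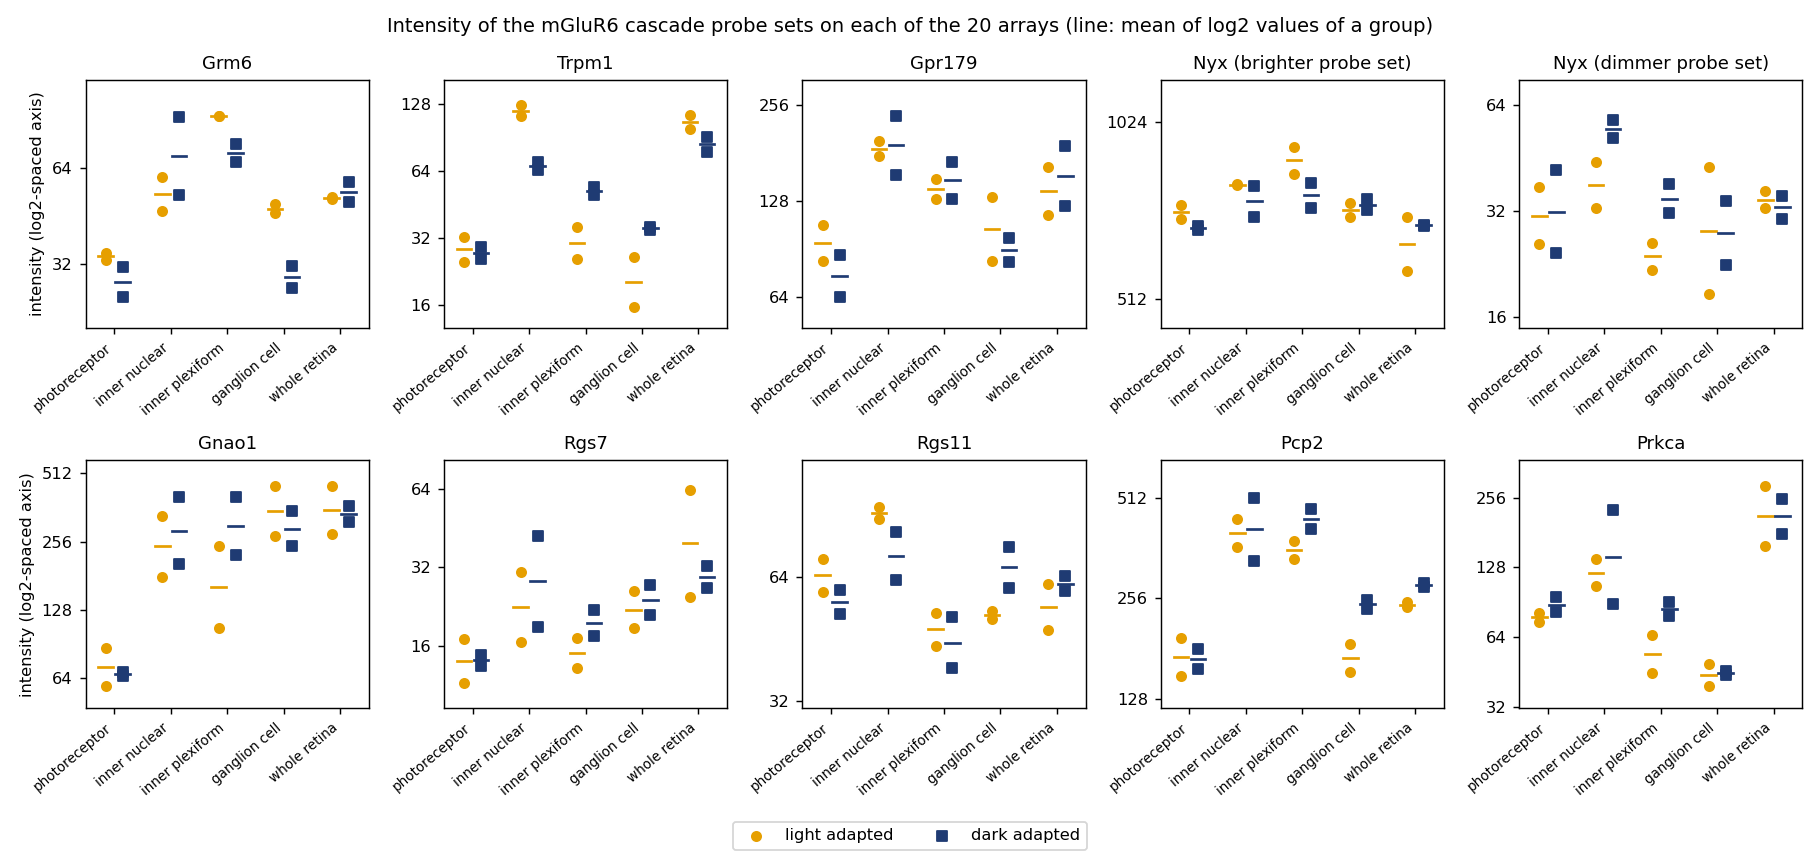
Each panel plots the deposited intensity (axis spaced by log2) of one member probe set on the 20 arrays by tissue, with circles for light-adapted and squares for dark-adapted arrays and a line at the group mean of the log2 values. All 4 inner nuclear layer arrays of Trpm1, at 64.5 to 126.5, lie above its 12 arrays of the other layers, at 15.7 to 53.9.

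In the inner nuclear layer, 4 of the 9 genes were higher than in the mean of the other 3 layers by limma's moderated test (adjusted p under 0.05 over all genes): Trpm1, Prkca, Gpr179 and Pcp2. Among all genes 0.252% were called higher in this comparison and 0.611% in either direction. The difference was above 0 for all 9 members, with a median of 0.64 on the log2 scale against -0.005 over all genes. The channel gene Trpm1 stood highest at 2.90-fold, and the receptor gene Grm6 was not called. Its mean was highest in the inner plexiform layer, by a difference from the inner nuclear layer that did not pass the test.

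Grm6 encodes mGluR6, the receptor at the head of the cascade (probe set 10375774). Its intensities in the inner nuclear layer were 60.0 and 46.9 in light and 52.8 and 92.8 in dark. In the inner plexiform layer they were 93.4 and 93.5 in light and 67.1 and 76.5 in dark. The inner plexiform arrays were all above 3 of the 4 inner nuclear arrays, and only the second dark inner nuclear array reached their range. The photoreceptor layer gave 34.8 and 33.0 in light and 31.4 and 25.2 in dark, the ganglion cells 49.4 and 46.4 in light and 31.7 and 26.9 in dark, and whole retina 50.3 to 58.1. Every inner nuclear and inner plexiform array lay above every photoreceptor array.

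The order of the Grm6 levels was thus inner plexiform, inner nuclear, whole retina, ganglion cell and photoreceptor layer. The inner plexiform layer was above the photoreceptor layer by 1.41 ± 0.18 (log2 difference ± SE, adjusted p = 5.63e-05) and above the ganglion cell layer by 1.13 ± 0.18 (0.00539). The inner nuclear layer was above the photoreceptor layer by 0.98 ± 0.18 (0.0021). The neighbours inner nuclear and inner plexiform layer were not separated (-0.43 ± 0.18, adjusted p = 0.175). In dark alone their difference was -0.03, with geometric means of 70.0 and 71.6, and in light alone, where the inner plexiform arrays are those that stood apart, -0.82; with 1 array left out it lay between -0.22 and -0.63. Not separated either were the ganglion cell and photoreceptor layers (0.28 ± 0.18, 0.458). Against the mean of the other 3 layers the inner nuclear difference of Grm6 was 0.42 ± 0.14 (0.266). Without the 2 light-adapted inner plexiform arrays, the difference from the ganglion cell layer was 0.94 ± 0.22 and no longer called (0.195), while that from the photoreceptor layer was 1.21 ± 0.22 (0.00342). Without the 5 arrays with Y-linked signal, the inner nuclear difference from the photoreceptor layer was 0.91 ± 0.24 (0.0705).

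Trpm1 encodes the channel that the cascade closes (probe set 10553861). The light-adapted inner nuclear arrays gave 126.5 and 112.8 and the dark-adapted ones 70.3 and 64.5. The other layers ran from 25.0 to 32.3 in the photoreceptor layer, from 25.8 to 53.9 in the inner plexiform layer and from 15.7 to 35.8 in the ganglion cell layer. Whole retina gave 98.6 and 113.8 in light and 90.7 and 78.1 in dark. The inner nuclear and whole retina arrays therefore shared a range, above all arrays of the other 3 layers. Trpm1 is the only member whose 4 inner nuclear arrays all lay above the 12 arrays of the other layers. The share of all genes whose arrays separate in this way was not counted, so the separation is given as a description only.

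The inner nuclear difference of Trpm1 from the mean of the other 3 layers was 1.54 ± 0.15 (adjusted p = 4.73e-05). It was 1.69 ± 0.18 against the photoreceptor layer (1.48e-05), 1.18 ± 0.18 against the inner plexiform layer (0.00202) and 1.74 ± 0.18 against the ganglion cell layer (0.00011). The 3 lower layers were not separated from each other, with 0.51 ± 0.18 between inner plexiform and photoreceptor layer (0.0512), 0.57 ± 0.18 between inner plexiform and ganglion cell layer (0.0892), and -0.06 ± 0.18 between ganglion cell and photoreceptor layer (0.923). The inner nuclear difference was 2.20 ± 0.25 (0.00422) over the light-adapted arrays and 0.87 ± 0.17 (0.268) over the dark-adapted arrays; these 2 values were not tested against each other. Without the light-adapted inner plexiform arrays it was 1.41 ± 0.14 (0.000376), and without the arrays with Y-linked signal 1.39 ± 0.16 (0.00988). The difference from the inner plexiform layer alone was 0.79 ± 0.21 (0.228) without that layer's light-adapted arrays, and that from the ganglion cell layer 1.31 ± 0.22 (0.0781) without the arrays with Y-linked signal.

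Gpr179 encodes the orphan receptor that holds the regulators of G-protein signalling at the dendritic tips (probe set 10390407). Its inner nuclear arrays gave 176.7 and 197.1 in light and 154.5 and 236.8 in dark. The inner plexiform arrays gave 149.7 and 129.9 in light and 170.1 and 130.1 in dark, and the ganglion cell arrays 132.0, 82.8, 98.1 and 82.3 in the same order. The photoreceptor layer was lowest at 63.8 to 107.7, and whole retina spread from 115.8 to 190.6. One inner nuclear array, the first in dark, fell inside the inner plexiform range, and all 4 lay above the photoreceptor and ganglion cell arrays.

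The inner nuclear difference of Gpr179 was 0.84 ± 0.17 against the other 3 layers (adjusted p = 0.0315) and 1.17 ± 0.21 against the photoreceptor layer (0.00201). The inner plexiform layer was also above the photoreceptor layer, by 0.78 ± 0.21 (0.0138). The neighbouring inner nuclear and inner plexiform layers were not separated (0.39 ± 0.21, 0.299), and the inner nuclear difference from the ganglion cell layer just missed the threshold (0.96 ± 0.21, 0.0516). Without the light-adapted inner plexiform arrays the difference from the other 3 layers was 0.83 ± 0.18 (0.076), and without the arrays with Y-linked signal 0.95 ± 0.20 (0.168). The call of the inner plexiform over the photoreceptor layer was lost too without the former arrays (0.83 ± 0.26, 0.0789). With 1 array left out at a time, these calls held in 14 of 20 fits (0.69 to 1.00) and in 17 of 20 (0.67 to 0.89).

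Nyx encodes nyctalopin, a leucine-rich repeat protein that places TRPM1 in the dendritic membrane, and has 2 probe sets that disagree. The brighter one (10595791) stands for the gene by the highest-mean rule and ran from 570.9 to 928.6 over all arrays, with 803.5, 798.2, 796.8 and 706.5 in the inner nuclear layer. Its arrays overlapped in every pair of layers with the inner nuclear layer, with an inner nuclear difference of 0.05 ± 0.09 (adjusted p = 0.9) and no called pair. The dimmer one (10598743) gave 32.6 and 44.0 in light and 51.5 and 58.0 in dark in the inner nuclear layer, and 18.6 to 42.5 in the other 3 layers. The dark inner nuclear arrays and the second light one lay above all 12 arrays of the other layers, and the first light one fell among them. Its inner nuclear difference was 0.63 ± 0.21 and not called (0.235, from a fit over 16444 probe sets).

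The 12 nearest numbered probe sets with 1 symbol around the dimmer Nyx probe set all belong to genes on chromosome X, where Nyx lies, and those around the brighter one all to genes on chromosome 9. Over the 20 arrays the 2 probe sets correlated at r = -0.10. Which of them measures Nyx was not tested, and each Nyx value above depends on that choice.

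Gnao1 encodes the alpha subunit of Go, which neurons express widely (probe set 10573979). The photoreceptor layer gave 59.1, 87.0, 68.4 and 65.5 (light, then dark). The inner nuclear layer gave 179.7, 331.4, 203.4 and 400.7, the inner plexiform layer 107.0, 244.1, 222.8 and 400.5, the ganglion cell layer 271.4, 448.6, 243.8 and 348.8, and whole retina 277.4 to 450.0. Each photoreceptor array lay below every other array. The ganglion cell layer was 2.20 ± 0.31 above the photoreceptor layer (adjusted p = 0.000151), the inner nuclear layer 1.93 ± 0.31 (0.000708) and the inner plexiform layer 1.67 ± 0.31 (0.00125). The 3 inner layers were not separated, and the inner nuclear difference from the other 3 layers was 0.64 ± 0.25 (0.359). Replicate 2 of Gnao1 was the higher in 9 of the 10 groups, by 0.66 on average.

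Rgs7 and Rgs11 encode the paired regulators that switch Go off in ON bipolar cells. Rgs7 (10360418) was dim, with a log2 value over 5 on 3 of 20 arrays, and gave 16.6, 30.8, 18.9 and 42.3 in the inner nuclear layer. No pair of layers was called for it, and the inner nuclear difference was 0.52 ± 0.26 (adjusted p = 0.531). Rgs11 (10442968) gave 94.6 and 88.7 in light and 63.1 and 82.1 in dark in the inner nuclear layer and 43.7, 52.4, 38.5 and 51.3 in the inner plexiform layer. Those 2 sets of arrays did not overlap, and the difference of 0.82 ± 0.16 was called (0.01). The photoreceptor layer, at 52.1 to 71.0, and the ganglion cell layer, at 50.7 to 75.8, overlapped both. Against all 3 layers the inner nuclear difference of Rgs11 was 0.57 ± 0.13 (0.063). Its call over the inner plexiform layer was lost without that layer's light-adapted arrays (0.87 ± 0.19, 0.14) and without the arrays with Y-linked signal (0.79 ± 0.19, 0.0672).

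Pcp2 encodes a GoLoco protein that binds Go in bipolar and Purkinje cells (probe set 10576749). It gave 365.3, 442.8, 331.3 and 511.2 in the inner nuclear layer and 336.8, 381.0, 412.6 and 472.5 in the inner plexiform layer. The photoreceptor layer gave 149.9 to 194.5, the ganglion cell layer 154.0 and 186.5 in light and 238.2 and 253.0 in dark, and whole retina 241.0 to 285.3. The 8 inner nuclear and inner plexiform arrays all lay above the remaining 12. The inner nuclear layer exceeded the photoreceptor layer by 1.26 ± 0.15 (adjusted p = 4.75e-05) and the ganglion cell layer by 1.00 ± 0.15 (0.00422). The inner plexiform layer exceeded them by 1.23 ± 0.15 (5.31e-05) and 0.96 ± 0.15 (0.00562).

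The inner nuclear and inner plexiform layers were not separated in Pcp2 (0.03 ± 0.15, adjusted p = 0.93). Against the mean of the other 3 layers the inner nuclear difference was 0.76 ± 0.12 (0.00907). It was 0.71 ± 0.13 (0.0357) without the light-adapted inner plexiform arrays and 0.71 ± 0.16 (0.17) without the arrays with Y-linked signal. In the latter fit the differences from the ganglion cell layer were no longer called either, at 0.80 ± 0.21 (0.494) for the inner nuclear and 0.70 ± 0.19 (0.158) for the inner plexiform layer. With 1 array left out, the call against the 3 layers held in 18 of 20 fits and was lost without the second light-adapted or the second dark-adapted inner nuclear array (0.61 without the latter).

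Prkca encodes protein kinase C alpha, by which rod bipolar cells are usually stained (probe set 10392388). The inner nuclear arrays gave 106.1 and 139.2 in light and 89.0 and 226.8 in dark. The photoreceptor layer gave 74.6, 81.5, 82.1 and 95.1, the inner plexiform layer 65.3, 44.8, 91.0 and 79.2, and the ganglion cell layer 39.4, 49.1, 45.6 and 44.1. Whole retina was highest at 158.4 and 286.8 in light and 178.7 and 252.9 in dark. The ganglion cell layer was below all photoreceptor and inner nuclear arrays, and the first dark inner nuclear array fell among the photoreceptor and inner plexiform values.

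The inner nuclear difference of Prkca was 1.06 ± 0.21 against the other 3 layers (adjusted p = 0.0273), 1.56 ± 0.25 against the ganglion cell layer (0.0072) and 0.96 ± 0.25 against the inner plexiform layer (0.0398). It was 0.66 ± 0.25 and not called against the photoreceptor layer (0.178). The ganglion cell layer was lower than the photoreceptor layer by a called difference of -0.90 ± 0.25 (0.0356). Without the light-adapted inner plexiform arrays, the difference from the 3 layers was 0.95 ± 0.21 (0.0849) and that from the inner plexiform layer 0.63 ± 0.31 (0.553). Without the arrays with Y-linked signal none of these 4 calls remained, with adjusted p from 0.0904 to 0.235. With 1 array left out at a time, the call over the inner plexiform layer held in 10 of 20 fits (0.62 to 1.29), that of the ganglion cell below the photoreceptor layer in 13, that against the 3 layers in 14 (0.72 to 1.40) and that over the ganglion cell layer in 18. The lowest inner nuclear differences came without the second dark-adapted inner nuclear array.

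Over the 6 pairs of layers, 19 of the 54 member tests were called (35.2%), against 7.13% of the tests of all genes. The inner nuclear layer was higher than the photoreceptor layer for 5 members (Grm6, Trpm1, Gpr179, Gnao1 and Pcp2; 1.26% of all genes called higher), than the inner plexiform layer for 3 (1.62%) and than the ganglion cell layer for 3 (0.166%). The inner plexiform layer was higher than the photoreceptor layer for 4 (11.7%) and than the ganglion cell layer for 2 (1.81%). Between ganglion cell and photoreceptor layer Gnao1 was higher and Prkca lower (7.66% of all genes called in either direction), 2 of 9. Across the 27 calls of members in these pairs, in the inner nuclear comparison and in whole retina, 20 held without the light-adapted inner plexiform arrays and 16 without the arrays with Y-linked signal.

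**Figure D2:**
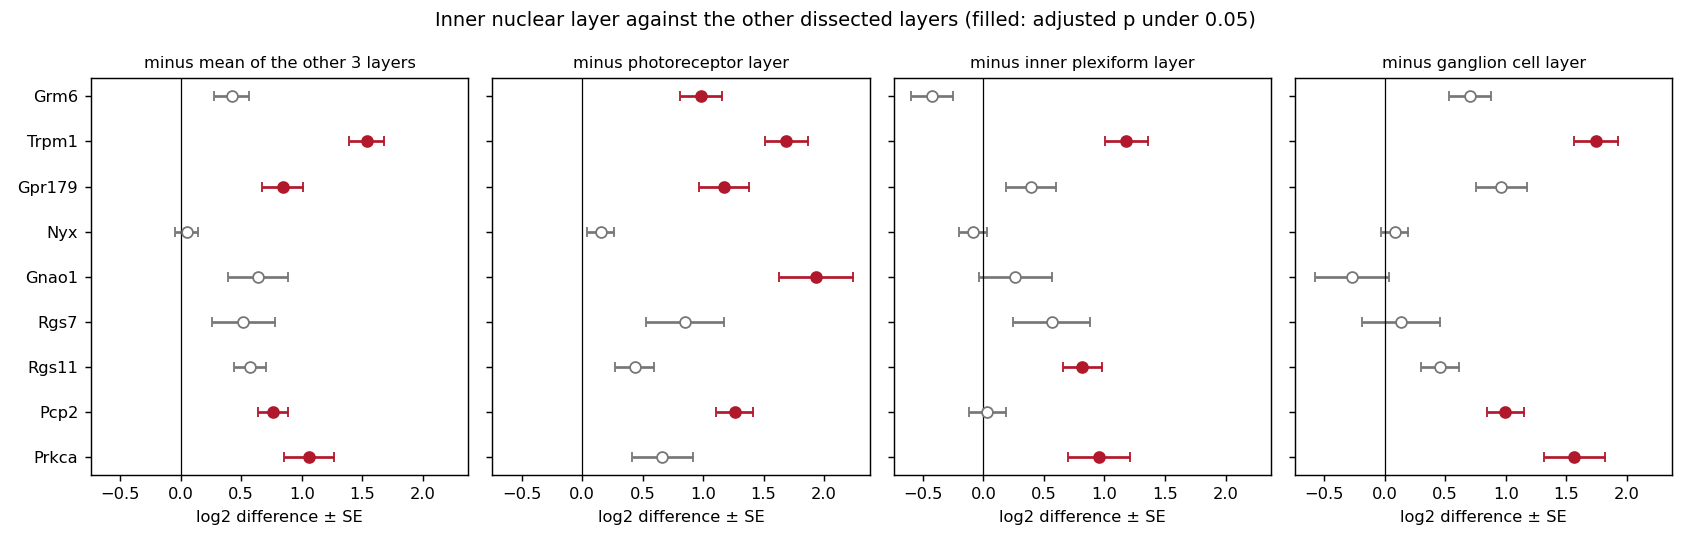
Log2 differences with their standard errors (x axis) of the 9 members (y axis) between the inner nuclear layer and the mean of the other 3 layers, the photoreceptor, the inner plexiform and the ganglion cell layer; filled points passed limma's test at an adjusted p of 0.05. Trpm1 is filled in all 4 panels, from 1.18 to 1.74, and Grm6 lies below 0 against the inner plexiform layer.

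The inner nuclear arrays also differed among themselves in a way the members did not share. The second dark-adapted array was the highest of the 4 for Grm6, Gpr179, Gnao1, Rgs7, Pcp2 and Prkca, and it had the highest mean log2 level of 7 other ON bipolar genes (6.87, against 5.89 to 6.51). Trpm1 (64.5) and the brighter Nyx probe set (706.5) were at their lowest of the 4 there. Rgs11 lay in between (82.1), and the dimmer Nyx probe set was at its highest (58.0). The same array had the highest mean level of 11 Müller glia genes (7.26, against 6.53 to 7.03), of the 10 rod genes (7.53, against 5.95 to 6.85), of the 6 OFF bipolar genes (6.44, against 5.69 to 5.90) and of the 6 horizontal cell genes (6.40, against 5.75 to 6.01), though not of the 11 amacrine genes (5.98, against 5.99 to 6.15); their part in these values was not tested. Without this array the inner nuclear count of called members was 1. It was also 1 without the second light-adapted inner nuclear array, and 2 without the first light-adapted inner nuclear array or the second light-adapted photoreceptor array; Trpm1 was called in every one of the 20 fits that left out an array.

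Whole retina was compared with the mean of the 4 layers, and 4 of 9 members were higher there: Prkca by 1.49 ± 0.20 (adjusted p = 4.46e-05), Trpm1 by 1.23 ± 0.14 (1.35e-05), Gnao1 by 0.87 ± 0.24 (0.00798) and Rgs7 by 0.82 ± 0.25 (0.0146). Of all genes 48.5% were called and 19.9% were called higher, and the median over all genes was -0.18. Rgs7 was over the filter's log2 of 5 on 3 arrays only, whole retina at 63.7 and 32.5 and inner nuclear layer at 42.3. It thus passed the filter only through whole retina, so its call there is not independent of the filter. Grm6 (0.11 ± 0.14, 0.519), Gpr179 (0.25 ± 0.16, 0.201), Rgs11 (-0.06 ± 0.13, 0.693) and Pcp2 (-0.06 ± 0.12, 0.682) were not called. The brighter Nyx probe set gave -0.20 ± 0.09 (0.0761). Without the second light-adapted whole retina array, which held the highest values of Gnao1, Rgs7 and Prkca among whole retina arrays, 2 members were called.

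The study's treatment, light or dark adaptation, gave no called difference for any member in the fit of the 10 group means. Gnao1 in the inner plexiform layer (dark minus light 0.89 ± 0.43, limma adjusted p = 0.281) was called only with the replicate number as a block (0.0374), where 5.19% of all genes were called. Averaged over the 5 tissues (10 arrays against 10), 0 of 9 were called by limma, against 0.0133% of all genes; 1 member, Pcp2, had an unadjusted p under 0.05 (dark minus light 0.21 ± 0.10, adjusted p = 0.796), as did 920 of all genes. Within single tissues 0 of 45 member tests were called, against 0.383% of the tests of all genes, and the moderated F test of whether the dark effect differs between tissues called 0 of 9, against 0.0266%. Counted at an unadjusted p under 0.05, there were 1 of 9 members in the inner nuclear layer (473 of 15057 genes), 1 in the inner plexiform layer (2815 genes, a larger share than of the members), 3 in the ganglion cell layer (614 genes), and 0 for both photoreceptor layer (224) and whole retina (135). With 2 arrays a side, SEs of single members were 0.16 to 0.45.

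Trpm1 comes first here because its light and dark arrays lay apart in 4 of the 5 tissues. With 2 arrays against 2, arrays can easily lie apart without a difference between the groups. For all genes, the share whose arrays lay apart was not counted, so no such separation of a member is read as a result. The percentages below are of genes called by limma, which is another measure. The dark inner nuclear arrays, at 70.3 and 64.5, lay below the light ones at 126.5 and 112.8, a dark minus light difference of -0.83 ± 0.25 (adjusted p = 1; 0% of genes called). In the inner plexiform layer the dark arrays, at 49.6 and 53.9, lay above the light ones at 25.8 and 35.7 (0.77 ± 0.25, 0.12; 1.83% called). In the ganglion cell layer 35.8 and 34.7 in dark lay above 26.3 and 15.7 in light (0.79 ± 0.25, 1; 0.00664% called). Light and dark arrays did not overlap in these 3 layers or in whole retina (-0.33 ± 0.25; 0.0266% called), and overlapped in the photoreceptor layer (-0.06 ± 0.25; 0.0465% called). The F test of a difference between the 5 tissues gave Trpm1 an adjusted p of 0.363 in limma, the smallest of the 9 members.

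Other cell markers moved on the same arrays. The 10 rod genes averaged a log2 level of 6.02 and 5.95 in the light and 6.85 and 7.53 in the dark inner nuclear arrays. In the inner plexiform layer the mean of the 11 Müller glia genes was 6.12 and 6.50 in light and 6.91 and 7.24 in dark, and that of the 7 ON bipolar genes 5.57 and 5.73 in light and 5.84 and 6.23 in dark. In the ganglion cell layer the ON bipolar mean overlapped between light (5.70 and 5.62) and dark (5.84 and 5.57). Both light-adapted ganglion cell arrays carried Y-linked signal and neither dark one did. The part of these in the Trpm1 values was not tested.

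Grm6 had dark values below light ones in the ganglion cell layer (31.7 and 26.9 against 49.4 and 46.4, -0.71 ± 0.25, adjusted p = 1), in the inner plexiform layer (-0.38 ± 0.25, 0.435) and in the photoreceptor layer (31.4 and 25.2 against 34.8 and 33.0, -0.27 ± 0.25, 1), without overlap. In the inner nuclear layer the Grm6 arrays of dark and light overlapped (0.40 ± 0.25, 1). The F test gave Grm6 an adjusted p of 0.842. Pcp2 was above its light arrays in dark in the ganglion cell layer (0.53 ± 0.21, 1), the inner plexiform layer (0.30 ± 0.21, 0.488) and whole retina (0.20 ± 0.21, 1), without overlap. The dark arrays also lay apart from the light ones for Prkca, higher in the photoreceptor (0.18 ± 0.36, 1) and inner plexiform layers (0.65 ± 0.36, 0.35), and for Rgs7, higher in the inner plexiform layer (0.39 ± 0.45, 0.702). Rgs11 lay lower in dark in the inner nuclear layer (-0.35 ± 0.23, 1) and higher in the ganglion cell layer (0.39 ± 0.23, 1). The brighter Nyx probe set lay lower in dark in the photoreceptor, inner nuclear and inner plexiform layers (-0.09, -0.09 and -0.20). The dimmer Nyx probe set went the other way without overlap in the inner nuclear (0.53 ± 0.36) and inner plexiform layers (0.54 ± 0.36). Its light and dark arrays overlapped in the other tissues. Gpr179 and Gnao1 overlapped between light and dark in every tissue.

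**Figure D3:**
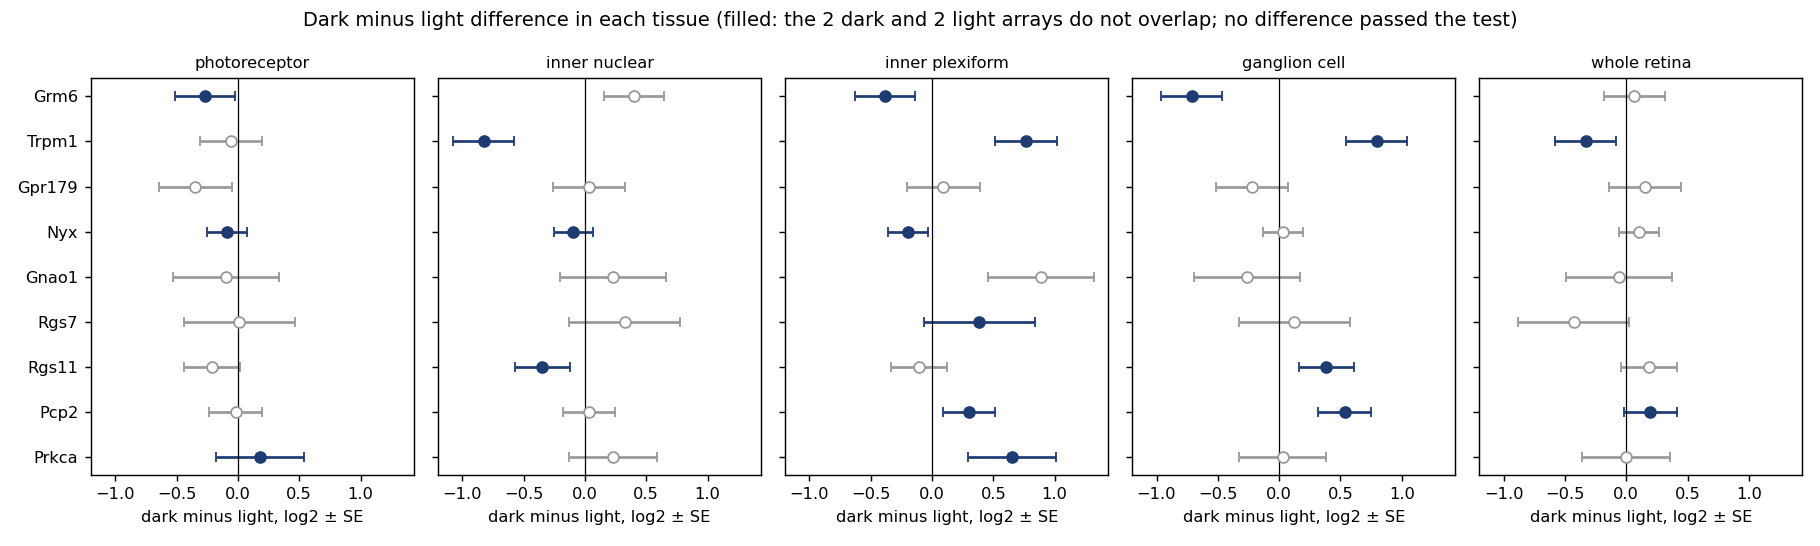
Dark minus light log2 differences with standard errors (x axis) of the 9 members (y axis) in each of the 5 tissues, 2 arrays against 2; filled points mark groups whose arrays do not overlap, and none passed limma's test in the fit of the group means. Trpm1 lies at -0.83 in the inner nuclear layer and at 0.77 and 0.79 in the inner plexiform and ganglion cell layers.

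A further 10 genes of the cascade and its synapse were examined: the partners Gnb3, Gng13, Gnb5, Rgs7bp, Rgs9bp, Lrit3, Lrfn2, Elfn1, Egflam and Dag1. All 10 were measured; 0 were higher and 1 was lower in the inner nuclear layer, and their median difference was -0.18 against -0.005 over all genes. Egflam, which encodes pikachurin of the photoreceptor synaptic cleft, was lower by -0.58 ± 0.13 (adjusted p = 0.044). It gave 122.5 to 162.1 in the photoreceptor layer, 100.8 to 133.8 in whole retina and 42.3 to 80.1 in the other 3 layers, where the inner nuclear arrays (48.7 to 61.9) lay inside the range of the rest. The partner list kept a call in 6 of the 20 fits with 1 array left out, and had none when the inner plexiform arrays from light-adapted mice, or the arrays with Y-linked signal, were left out. Rgs9bp, the membrane anchor R9AP, which rods share, gave -0.45 ± 0.15 (0.24), and Dag1, the dystroglycan to which pikachurin binds, -0.41 ± 0.13 (0.213). Gnb3, the beta subunit of ON bipolar cells and cones, gave 0.47 ± 0.17 (0.316), with 143.9 to 206.1 in the photoreceptor layer and 126.3 to 200.6 in the inner nuclear layer.

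Of 7 measured ON and rod bipolar genes outside the cascade, 1 was called higher in the inner nuclear layer, with a median difference of 0.63. This was Cabp5, a calcium-binding protein of rod bipolar and some cone bipolar cells, at 1.37 ± 0.27 (adjusted p = 0.0309). Car8 gave 0.74 ± 0.25 (0.255), the GABA receptor subunit gene Gabrr1 0.73 ± 0.25 (0.275) and the transcription factor gene Isl1 0.63 ± 0.20 (0.212). Of 7 listed OFF and cone bipolar genes 6 were measured (Tacr3 was not), and 1 was called higher, Scgn, which encodes secretagogin, at 1.57 ± 0.26 (0.0107). Scgn was dim, with 20.9 to 96.2 in the inner nuclear layer and 9.3 to 26.1 in the inner plexiform layer. The photoreceptor (9.8 to 13.7) and ganglion cell layers (7.9 to 11.9) were near 8, the value to which lower intensities were raised. Grik1, the kainate receptor subunit of OFF bipolar cells, gave 1.13 ± 0.32 (0.164), Fezf2 0.43 ± 0.17 (0.355) and Irx6 -0.19 ± 0.12 (0.658), and the list's median was 0.28. The ON and OFF lists therefore had the same number of called genes, and no test compared them. With 1 array left out, the ON list kept a call in 15 of 20 fits and the OFF list in 19 of 20; without the arrays with Y-linked signal neither had one, and without the inner plexiform arrays from light-adapted mice the OFF list alone kept its 1.

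**Figure D4:**
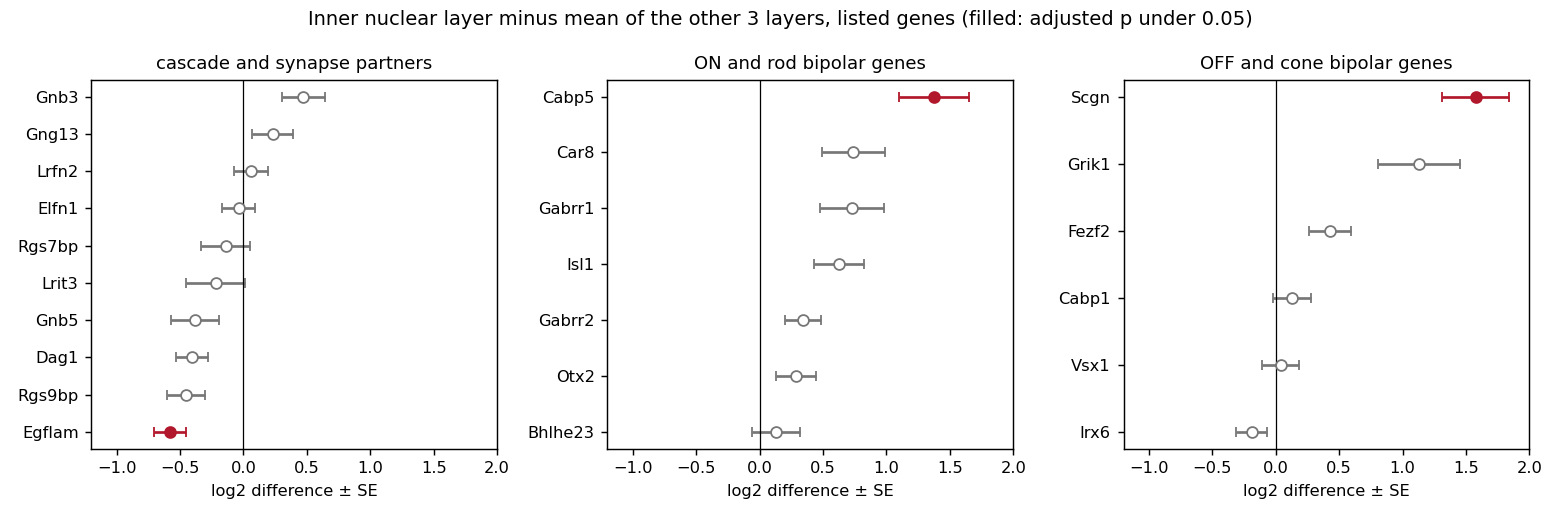
Log2 differences with standard errors (x axis) between the inner nuclear layer and the mean of the other 3 layers for the 10 cascade and synapse partners, the 7 measured ON and rod bipolar genes and the 6 measured OFF and cone bipolar genes (y axes); filled points passed the test. Cabp5 at 1.37 and Scgn at 1.57 are filled on the higher side and Egflam at -0.58 on the lower side.

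Other cell types of the inner nuclear layer were counted in the same comparison. Of 11 Müller glia genes 2 were higher and 0 lower, of 11 amacrine and of 6 horizontal cell genes 0 were called, of 10 rod genes 0 were higher and 3 lower, and of 10 ganglion cell genes 0 were higher and 2 lower. The mean log2 level of the Müller list was 6.87 ± 0.33 (SD, n = 4) in the inner nuclear layer, 6.69 ± 0.49 in the inner plexiform layer and 5.82 ± 0.04 in the photoreceptor layer. That of the ON bipolar list was 6.34 ± 0.44, 5.84 ± 0.28 and 5.70 ± 0.04 in the same order, 5.68 ± 0.12 in the ganglion cell layer and 6.62 ± 0.19 in whole retina. The inner nuclear arrays thus held rod signal of 5.95 to 7.53 beside their bipolar markers, and its part in the member values was not tested.

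Across the 20 arrays, whose values share tissue and array, members fell into loose groups, given as a description only. Gnao1 and Rgs7 correlated at r = 0.78, Grm6 and Gpr179 at 0.75, Trpm1 and Prkca at 0.74, Grm6 and Pcp2 at 0.73 and Gpr179 and Pcp2 at 0.72. Grm6 and Trpm1, receptor and channel of the same cascade, correlated at 0.30. The genes outside the cascade most like Trpm1 were Rlbp1 (0.85), Lamp5 (0.84), Cabp5 (0.83) and Abca8a (0.83), of which Rlbp1 and Abca8a stand in the Müller glia list. For Prkca they were Slc24a4 (0.91), Neo1 (0.91), Adgrl2 (0.90) and Scgn (0.89). For Grm6 they were Nudt17 (0.77), Fam184b (0.76), Trnp1 (0.75) and Ssbp3 (0.75).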

How the data were processed

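Laser-captured retina RNA was labelled by Affymetrix's 2-cycle protocol, per the labels' protocols, and the values were made with GCRMA (version not given), per the submitters' processing notes. The deposited values are intensities, 1 per probe set and array; that they are linear was read from the values. Intensities under 8 (11.3% to 14.1% of an array) were set to 8 and log2 was taken. Probe sets with 1 platform symbol and a log2 value over 5 on at least 2 arrays were kept (16444), and the one with the highest mean stood for its gene. Of the rest of the array, 1621 probe sets have several symbols and 12147 are not listed.

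One limma fit (limma 3.58.1, R 4.3.3) held a mean for each of the 10 groups, with 10 residual degrees of freedom and a variance trend on intensity. P-values are two-sided and adjusted by Benjamini-Hochberg over all 15057 genes, with a threshold of 0.05. Those of the dimmer Nyx probe set and of Mir211 came from a fit over 16444 probe sets. The fit over genes was tested on simulated data. Differences are log2 with their SE, and p-values in parentheses are adjusted. Precision is limited by how few arrays a group has.

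The members and lists were chosen with earlier results of these data known. All member probe sets were named, then the called genes, or at least 4 by smallest p, of the partner, ON bipolar and OFF bipolar lists, and the 4 genes most correlated with Trpm1, Grm6 and Prkca. Platform symbols can be old. Alternatives were quantile normalisation, log2 of the intensity plus 16, no filter or one at log2 7, the mean of probe sets, no trend, only the arrays compared, the replicate number as a block, and fits without arrays.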

Additional observations from a re-analysis of the deposited data

How the results depend on the processing

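Of 3976 values of single members under the alternatives, 3851 kept their side of the threshold, 98 lost and 27 gained a call. Of the called values, 0 changed direction. Values that were not called could change sign. The inner nuclear difference of Grm6 from the other 3 layers, 0.42 with all arrays, was -0.0075 at its lowest. The inner nuclear count of 4 called members became 2 without the filter on dim probe sets, 2 without the inner plexiform arrays of light-adapted mice, 1 without the arrays with Y-linked signal, 1 with only the light-adapted arrays and 0 with only the dark-adapted arrays (Trpm1 0.87 ± 0.17, limma adjusted p = 0.268). The last 2 settings and the other Nyx probe set were chosen after seeing the data. Leaving out 1 array at a time gave 1 to 5. The 19 called pair tests became 12 without the arrays with Y-linked signal, 9 in light alone and 10 in dark alone, and 16 to 22 with 1 array left out. With only the arrays compared, Rgs11 and Prkca lost their inner nuclear calls over the inner plexiform layer. Pcp2 and Prkca then lost their inner nuclear calls over the ganglion cell layer, and Grm6 and Pcp2 their inner plexiform calls over it. Whole retina's 4 became 2 in dark alone and 2 to 5 with 1 array left out (5 without the first light-adapted whole retina array). The dark counts were 0 to 0 with 1 array left out. The cause of these losses was not tested; fits on light or dark arrays alone hold 10 arrays. With the filter at log2 7, Grm6, Trpm1, Rgs7 and Rgs11 were not tested and 3 of the other 5 members were called in the inner nuclear layer.

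The replicate numbers were not taken to pair the arrays, since the labels give no shared source and deviations of same-numbered arrays did not correlate over 0.1 in every pair of groups. The correlations were all above 0, at 0.0059 to 0.479 (median 0.127) over 45 pairs of groups, 32 of them over 0.1, and the number itself was called by limma for 1202 of 15057 genes (7.98%), Gnao1 among them (adjusted p = 0.00237). With the replicate number as a block, 6 members were called in the inner nuclear layer (Gnao1 at 0.0215 and Rgs11 at 0.0334 besides) and 239 of all genes (1.59%) against 92. The pairs then gave 21 calls (1.02% to 26.6% of all genes called in a pair), whole retina 5 (53.3%), of which the added one, Nyx, was lower (-0.20, 0.0422), and the dark comparisons of single tissues 1 (Gnao1 in the inner plexiform layer, 0.89, adjusted p = 0.0374; 5.19%).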

Other observations

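The microRNA gene Mir211 lies within Trpm1, and its probe set, outside the rule for the members, did not follow the host gene. RefSeq (GRCm38.p6) gives the mature sequence at chr7:64205831-64205852 on the plus strand, shown to name the microRNA, with the seed (bases 2 to 8) in capitals.
mmu-miR-211-5p: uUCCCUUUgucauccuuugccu

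The Mir211 probe set gave 200.8 and 205.0 in light and 172.0 and 185.3 in dark in the inner nuclear layer, and 122.6 to 235.0 over all 20 arrays. Its inner nuclear difference was 0.12 ± 0.14 (limma, adjusted p = 0.814, from the fit over 16444 probe sets), where that of Trpm1 in the fit over genes was 1.54 ± 0.15. The arrays of all layers overlapped. An array of this kind can read the precursor or the surrounding intron as well as the mature form, which cannot be told apart here.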
